A study of Mus musculus with 360 samples.

Results

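The response of the lung to 1,2-dichlorobenzene was compared with that of the liver in the same study animals. For each gene the quantity was a difference of changes: lung at 250 ppm minus lung at 0 ppm, less the same subtraction in the left lobe of the liver. A positive difference therefore means that the gene moved upward in lung relative to liver, whether because it rose in lung or because it fell in liver. The mice were females of the hybrid strain B6D2F1/Crl (BDF-1), 9 weeks of age, with tissue collected on study day 5. The labels give the exposure as a concentration in ppm and name 1,2-dichlorobenzene as the treatment of the 0 ppm animals too, which served as the unexposed controls. The route of exposure is not given in the sources used here. Of the 360 libraries of the series, 31 met the rule of tissue, treatment, concentration and the label Used in Analysis. They comprised 10 lungs and 9 livers at 0 ppm and 6 lungs and 6 livers at 250 ppm. Both tissues were available from 9 control animals and from 5 of the exposed animals. The model also held the lungs and livers of the same treatment at 1, 10, 30 and 100 ppm, 66 libraries in all, so that every group contributed to the estimate of the spread between animals.

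1,2-Dichlorobenzene is a chlorinated solvent that cytochrome P450 enzymes oxidise to reactive epoxides, which glutathione S-transferases couple to glutathione. The liver carries most of this metabolism, and the club cells of the mouse airway are also rich in P450 enzymes. Electrophiles of this kind modify KEAP1, the protein that holds the transcription factor NRF2 down, and freed NRF2 switches on genes for glutathione synthesis, conjugation and quinone reduction. Hepatocytes are mostly quiescent in the adult, and after loss of liver cells the surviving ones re-enter the cell cycle, while the adult lung turns over slowly.

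RNA was measured by TempO-Seq with the Mouse S1500+ v1.2 panel, in which pairs of short detector oligos are ligated on each target RNA, amplified and counted by sequencing. The table held 3154 probes for 2759 genes, of which 2853 probes for 2529 genes had enough counts to be tested. Total counts ran from 12.4 to 26.3 M per lung library, with a median of 18.2 M, and from 14.1 to 21.6 M per liver library, with a median of 16.8 M. As a check of the tissue labels, Lamp3, an alveolar type 2 cell gene, lay between 589.6 and 1003 CPM in the lungs of the 4 groups and at 0 in all their livers. It was 1 of 3 lung epithelium marker probes tested, and their sum separated the tissues less sharply. That sum lay between 12359 and 24274.5 CPM in control lungs and between 8531 and 10927 CPM in control livers. At 250 ppm the sums of the tissues overlapped. The summed level of 14 hepatocyte marker probes lay between 202148 and 453673 CPM in liver and between 97.8 and 506 CPM in lung. Levels are given in CPM, read counts scaled to a common library size (the usual counts-per-M unit) after adjustment by the trimmed mean of M-values (TMM), as the lowest, median and highest library of a group in that order. Differences and changes are log2 values with their standard errors, tested with edgeR's quasi-likelihood test and called at a Benjamini-Hochberg adjusted p under 0.05 over all probes. In these bulk tissues, a loss of cells of a type and less RNA per cell cannot be told apart.

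At 250 ppm the liver changed far more widely than the lung. In liver 1586 of 2853 probes passed the test (55.6%), 515 higher (18.1%) and 1071 lower (37.5%). In lung 594 passed (20.8%), 360 higher (12.6%) and 234 lower (8.2%). The change itself differed between the tissues for 982 probes (34.4%), of which 636 were higher in lung relative to liver and 346 lower. The split between the directions rested on how the tissues were scaled. The median TMM factor of the livers moved from 0.57 at 0 ppm to 0.797 at 250 ppm, and that of the lungs from 1.35 to 1.89. When each tissue was scaled on its own, 798 probes passed (28%), 346 higher (12.1%) and 452 lower (15.8%), and the median difference of all probes moved from 0.18 to -0.00284. DESeq2 with its own size factors called 900, with 445 higher and 455 lower. The 2 edgeR scalings shared 692 calls of the difference. The size of the excess of falls in liver rested on scaling too. Scaled on its own, liver gave 1356 calls, 659 higher and 697 lower, and DESeq2 gave 604 and 851 there. In lung, separate scaling gave 377 higher and 234 lower. In what follows a call for a single gene holds under both edgeR scalings unless the text says otherwise. Counts on lists are those of joint scaling, over both tissues together, where no other is given.

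The commonest pattern was a gene that fell in liver and did not pass the test in lung. A probe counted as measured in a tissue at a mean of at least 5 CPM over all its libraries in the fit, exposed ones included. A probe low in control livers could thus enter through its rise in exposed livers, and counts of liver rises can include such probes. Bub1, for example, had a mean of 1.17 CPM in control livers and 47.4 CPM at 250 ppm. Of 1645 probes measured in both tissues, 746 differed (45.3%), 539 higher (32.8%) and 207 lower (12.6%). Among these, 392 fell in liver with no call in lung, and 191 of them kept that class under both scalings. Another 90 rose in liver with no call in lung, and all 90 kept the class. A further 94 rose in both tissues but by less in lung, again all 94 under both scalings, whereas 9 rose more in lung, of which 5 kept the class. Only 38 rose in lung with no call in liver, and 8 of those were classed the same way under both scalings. Opposite changes, each passing in its own tissue, were seen for 47 probes, and 17 of these held. Changes that passed in both tissues without differing were 107 falls and 56 rises, of which 73 and 47 kept the class.

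**Figure D1:**
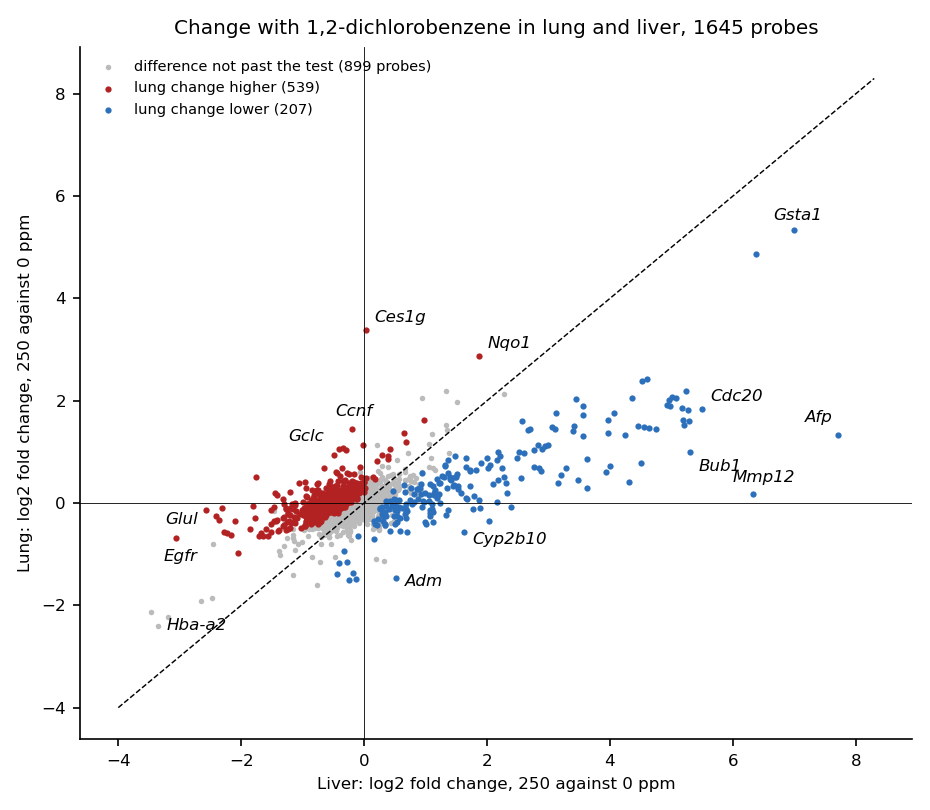
Change at 250 ppm in liver (horizontal axis, log2) against change in lung (vertical axis, log2), 1 point per probe measured in both tissues; colour marks probes whose difference passed the test, and the diagonal is equal change. Points spread more widely along the liver axis, with Afp (liver 7.71, lung 1.34) far below the diagonal and Ces1g (liver 0.03, lung 3.38) far above it.

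Genes of the cell cycle gave the broadest difference. Of 77 probes for 71 of the 85 listed genes, 71 rose in liver and none fell, with a median change of 3.44. In lung 54 rose and none fell, with a median of 1.13. Of all probes, 18.1% rose in liver and 12.6% in lung. The difference passed for 63 of the 77, all lower in lung relative to liver, where 12.1% of all probes tested were lower. Its median was -2.29, beside 0.18 over all probes, and 65 were lower when each tissue was scaled on its own. The rise was thus present in both tissues and larger in liver.

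Cdc20 activates the ubiquitin ligase that starts chromosome separation. It measured 10.7, 14.8 and 19.5 CPM in control lungs and 23, 36.2 and 115 CPM in exposed lungs. In liver it went from 1.72, 4.12 and 25.9 CPM to 85.8, 306 and 447 CPM. The groups did not overlap in either tissue, and the difference of changes was -3.66 ± 0.49 (adjusted p = 1.5e-08; lung 1.84, liver 5.50). Top2a, the topoisomerase that untangles DNA before mitosis, rose from a median of 23.2 to 58.3 CPM in lung and from 5.48 to 264 CPM in liver, a difference of -3.31 ± 0.45 (adjusted p = 2.6e-08). Its exposed libraries also lay above all controls in both tissues.

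Bub1, a kinase of the spindle checkpoint, had the largest difference of the list's probes measured in both tissues, -4.32 ± 0.47 (adjusted p = 9.4e-11). In lung its exposed libraries measured 4.45, 14.1 and 48.6 CPM, overlapping the controls at 8.43, 10.1 and 16.1 CPM. In liver they measured 25.7, 54.5 and 60.5 CPM, above controls at 0.357, 1.12 and 2.48 CPM. Aurora kinase B (Aurkb, -3.58 ± 0.47), Polo-like kinase 1 (Plk1, -3.68 ± 0.53) and the mitotic kinesin Cenpe (-3.29 ± 0.45) followed the same course. The replication genes Mcm2, part of the helicase, and Pcna, the polymerase clamp, differed less, by -1.70 ± 0.26 and -0.88 ± 0.18, and the Pcna call was lost with Dbp as a covariate. Stmn1, a regulator of microtubules, rose in liver by 3.63 ± 0.20, while its lung change of 0.30 ± 0.18 did not pass the test (adjusted p = 0.27).

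Ccnf stood apart from the rest of these genes. It encodes cyclin F, a subunit of a ubiquitin ligase active before mitosis. In lung it rose from 2.52, 4.22 and 5.61 CPM to 5.93, 8.13 and 20.7 CPM, with no overlap. In liver, where controls were already at 72.8, 95.1 and 109 CPM, exposed libraries measured 58.4, 82.4 and 97.9 CPM and the change of -0.20 ± 0.19 did not pass. Its difference was 1.65 ± 0.27 in favour of lung (adjusted p = 1.2e-06). Ccnf does not belong to the 77 probes counted above.

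Exposed animals differed from each other in the lung. The summed level of the cell cycle probes lay between 709 and 836 CPM in control lungs, and at 983, 1110, 1139, 1236, 2076 and 2678 CPM in exposed lungs, so that every exposed lung exceeded every control. The 2 highest belonged to animals 501 and 506R. In liver the sum was 572 to 853 CPM in controls and 3180 to 5953 CPM after exposure, with animal 501 lowest and animal 506R highest. Without animals 501 and 506R, a choice made after seeing the data, 22 of the 77 probes still rose in lung with a median of 0.63, while 61 remained lower in lung relative to liver with a median of -2.49. Leaving out 1 animal at a time gave 42 to 57 rises in lung, the lowest without 506R, and 61 to 64 lower differences.

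Promoters of genes that act late in the cell cycle are known to carry CCAAT boxes and a cell cycle homology region with the letters TTTGAA, through which the DREAM complex holds them silent in resting cells. Promoters of 60 of the 71 tested cell cycle genes were found by symbol in the RefSeq table (GRCm38.p6), as windows from 250 bases before to 50 after each start. TTTGAA, searched on both strands, was present for 31 of the 60 (51.7%), against 20.2% of 27025 genes. CCAAT was present for 43 of the 60 (71.7%), against 41.1%. The sequences below, read 5′ to 3′ on the gene's strand, are shown because 3 belong to genes that rose in both tissues but more in liver, and Ccnf is the exception. Capitals mark TTTGAA and CCAAT.
Ccnb2 (chr9:70421540-70421654, minus strand): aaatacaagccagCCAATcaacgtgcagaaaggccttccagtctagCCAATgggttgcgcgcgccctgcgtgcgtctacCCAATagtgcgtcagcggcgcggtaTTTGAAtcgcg
Cdc20 (chr4:118437329-118437443, minus strand): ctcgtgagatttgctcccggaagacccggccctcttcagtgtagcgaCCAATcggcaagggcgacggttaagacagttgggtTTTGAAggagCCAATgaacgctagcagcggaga
Prc1 (chr7:80294351-80294465, plus strand): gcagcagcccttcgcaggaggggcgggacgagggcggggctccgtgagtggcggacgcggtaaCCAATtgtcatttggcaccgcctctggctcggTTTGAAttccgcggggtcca
Ccnf (chr17:24251395-24251569, minus strand): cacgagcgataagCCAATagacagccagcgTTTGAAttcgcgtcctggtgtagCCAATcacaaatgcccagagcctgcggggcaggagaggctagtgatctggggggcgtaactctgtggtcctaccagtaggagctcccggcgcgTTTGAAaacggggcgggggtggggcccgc
The Ccnf segment is longer than the other 3 and reaches further before the start, and it held both motifs only over that longer stretch. TTTGAA lay first at 130 and again at 14 bases before the start. CCAAT lay at 147 and 107 bases before it, outside the stretch shown for the other 3 genes. Within that shorter stretch Ccnf held the second TTTGAA and no CCAAT. Prc1 has 2 promoters in the table, of which the first is shown. Ccnb2 and Prc1, which encode cyclin B2 and a protein of the dividing cell's midzone, differed by -3.69 ± 0.51 and -3.46 ± 0.53. A match of letters is a description and not evidence of binding.

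**Figure D2:**
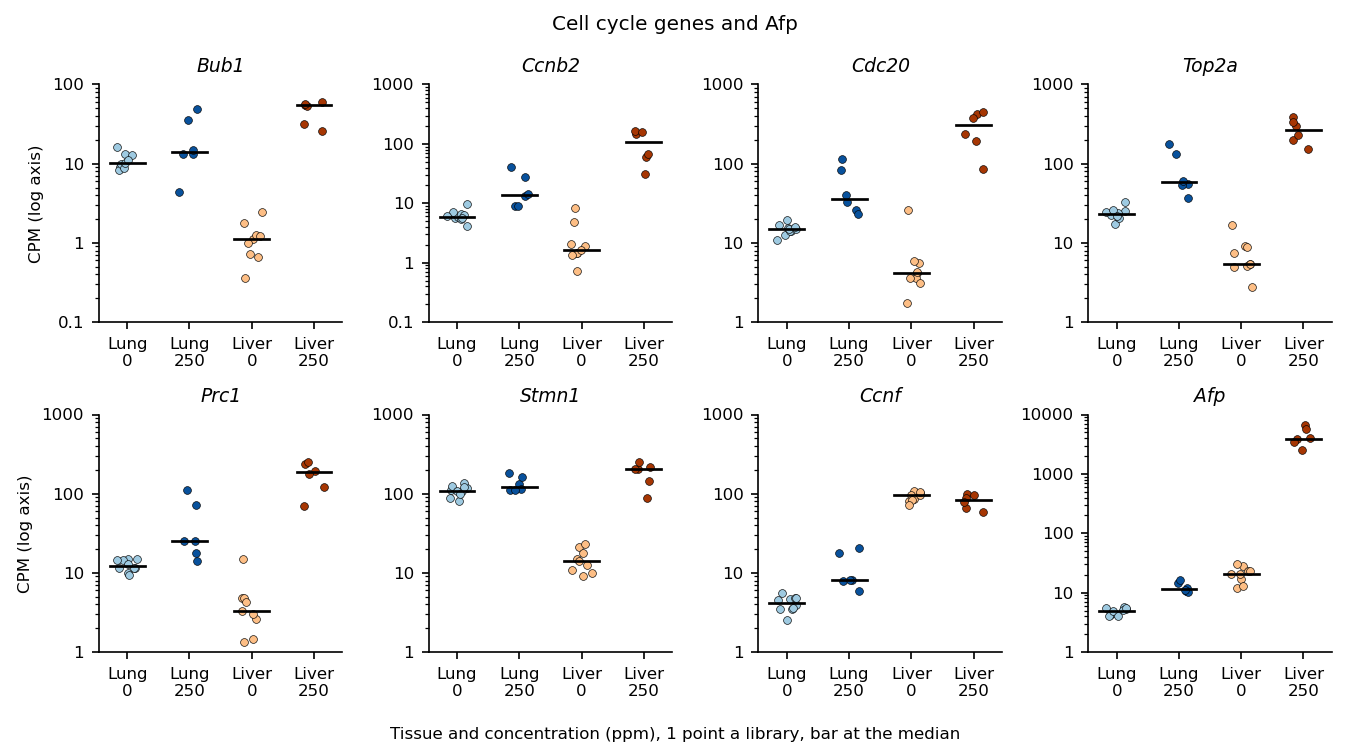
CPM on a log axis in lung and liver at 0 and 250 ppm for 7 cell cycle genes and Afp, 1 point per library with a bar at the group median. Exposed livers lie above control livers for every gene but Ccnf, and 2 exposed lungs stand above the other 4 for Cdc20, Top2a and Prc1.

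Targets of NRF2 rose in both tissues, with genes divided in which tissue changed more. Of 34 probes for 32 of 43 listed genes, 23 rose in lung and none fell, and 20 rose in liver and 5 fell. Of all probes, 12.6% rose in lung, and 18.1% rose and 37.5% fell in liver. The difference was higher in lung for 11 and lower for 12, against 22.3% and 12.1% of all probes, and its median was -0.06. With each tissue scaled on its own these counts were 9 and 13, and in liver 23 probes rose and 2 fell.

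Among the 12 lower in lung relative to liver were several glutathione transferases. Gsta1, an alpha-class glutathione S-transferase, went from 1.21, 2.2 and 4.33 CPM to 68.2, 88.3 and 144 CPM in lung. In liver it went from 17.7, 54.1 and 89.2 CPM to 5053, 7563 and 9791 CPM. Both tissues separated completely, and the difference was -1.66 ± 0.35 (adjusted p = 0.00015; lung 5.34, liver 7.00), a call that was lost when libraries labelled as not used were added. Gsta2 (-2.19 ± 0.36) and Gm3776 (-1.51 ± 0.31) behaved likewise, the Gm3776 call being lost in the same way, but these copies are near-identical in sequence and reads may be shared between their probes. Cbr3, a carbonyl reductase, rose by 1.73 in lung and 3.56 in liver, and Gstp1, a pi-class transferase, by 0.99 and 2.52. Another alpha-class transferase, Gsta3, went the other way, with a difference of 0.65 ± 0.25 (adjusted p = 0.041). That call was lost in 16 of 25 alternatives, among them separate scaling (adjusted p = 0.19) and animal as a block.

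Slc7a11, which imports cystine for glutathione synthesis, was also lower in lung relative to liver (-2.62 ± 0.62). It rose from 2.15, 3.82 and 4.95 CPM to 13.5, 27.6 and 54.1 CPM in lung and from 0, 0 and 0.551 CPM to 5.18, 6.7 and 12.5 CPM in liver. Gpx2, a glutathione peroxidase, differed by -3.92 ± 0.57, and its control livers likewise lay at 0.551 CPM or below, where the fitted change depends on the prior count. G6pdx, which supplies NADPH, differed by -0.52 ± 0.20 (adjusted p = 0.033), a call lost in 12 of 25 alternatives, among them animal as a block.

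Some conjugating enzymes rose in liver with no call in lung. Ugdh makes the UDP-glucuronic acid used in glucuronidation. It measured 115, 134 and 146 CPM in control lungs and 131, 136 and 155 CPM in exposed lungs, against 427, 624 and 869 CPM and 1759, 1829 and 2713 CPM in liver. The difference was -1.60 ± 0.17 (adjusted p = 4.4e-11), and its lung change of 0.07 ± 0.12 did not pass. Gstm2, a mu-class transferase, gave -2.14 ± 0.20, with a liver rise of 2.16 ± 0.14 and a lung change of 0.03 ± 0.14. Abcc4, an exporter of conjugates, rose in liver from 0.41, 1.84 and 2.86 CPM to 15.4, 24.4 and 35.9 CPM, while its lung change of 0.61 ± 0.29 did not pass (adjusted p = 0.13).

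Other members were higher in lung relative to liver. Gclc and Gclm are the catalytic and modifier subunits of the enzyme that limits glutathione synthesis. Gclm measured 5.19, 6.95 and 9.01 CPM in control lungs and 11.3, 14.6 and 16.8 CPM in exposed lungs, with no overlap. In liver it measured 55.1, 77 and 89.2 CPM and then 51.7, 62.4 and 69.7 CPM, which overlapped. The difference was 1.32 ± 0.19 (adjusted p = 1.5e-07; lung 1.03, liver -0.30). Gclc rose by 1.06 ± 0.14 in lung and fell by 0.41 ± 0.15 in liver, a difference of 1.47 ± 0.21, although the liver fall was not called when each tissue was scaled on its own (adjusted p = 0.22).

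Txnrd1, thioredoxin reductase, gave a difference of 1.16 ± 0.16, with lung up by 1.14 and liver at -0.03. Nqo1, which reduces quinones, rose in both tissues and more in lung. It went from 9.45, 10.9 and 13.8 CPM to 60.5, 75.5 and 127 CPM in lung and from 43.4, 50.1 and 60.1 CPM to 124, 178 and 257 CPM in liver, a difference of 1.00 ± 0.20 (adjusted p = 8e-05). Srxn1, sulfiredoxin, and Gsr, glutathione reductase, showed smaller differences of 0.65 ± 0.19 and 0.61 ± 0.10. The Srxn1 call was lost when libraries labelled as not used were added. Hmox1, a haem-degrading enzyme often induced through NRF2, had medians of 2.2 and 2 CPM in lung and 3.15 and 3.43 CPM in liver at 0 and 250 ppm, and its difference of -0.13 ± 0.36 did not pass.

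Osgin1 and Sqstm1, also on the list, fell in liver. Osgin1, an oxidative stress induced growth inhibitor, dropped in liver from 65.6, 106 and 133 CPM to 15.6, 33.3 and 42 CPM, while its lung change of 0.51 ± 0.19 did not pass with joint scaling (adjusted p = 0.053) and did with separate scaling (adjusted p = 0.046). Its difference was 2.26 ± 0.28 (adjusted p = 2.7e-09). Sqstm1, the autophagy receptor p62, fell by 1.00 ± 0.09 in liver against 0.02 ± 0.09 in lung. On the wider list of glutathione and thiol defence, 8 of 19 probes were higher in lung relative to liver and 3 lower. The shares of all probes were 22.3% and 12.1%. The median of the list was 0.43, and with separate scaling its counts were 8 and 4.

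Antioxidant response elements are known by the letters TGACNNNGC, where N is any base. The motif was found on either strand in the promoter window of 11 of 28 NRF2 list genes (39.3%) and of 7 of 15 glutathione list genes (46.7%), against 14% of 27025 genes. Gclm and Ugdh are shown because the first rose in lung alone and the second in liver alone. Capitals mark TGACNNNGC or its reverse complement.
Gclm (chr3:122245397-122245496, plus strand): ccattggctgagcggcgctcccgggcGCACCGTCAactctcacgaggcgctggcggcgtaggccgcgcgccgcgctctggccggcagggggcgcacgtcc
Ugdh (chr5:65435903-65436002, minus strand): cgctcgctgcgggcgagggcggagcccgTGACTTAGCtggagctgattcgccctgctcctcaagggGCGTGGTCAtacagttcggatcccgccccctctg
The match in Gclm lay 134 bases before the start, and those in Ugdh began 132 and 94 bases before it. Both segments hold the letters, and the tissue in which each gene rose differed.

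**Figure D3:**
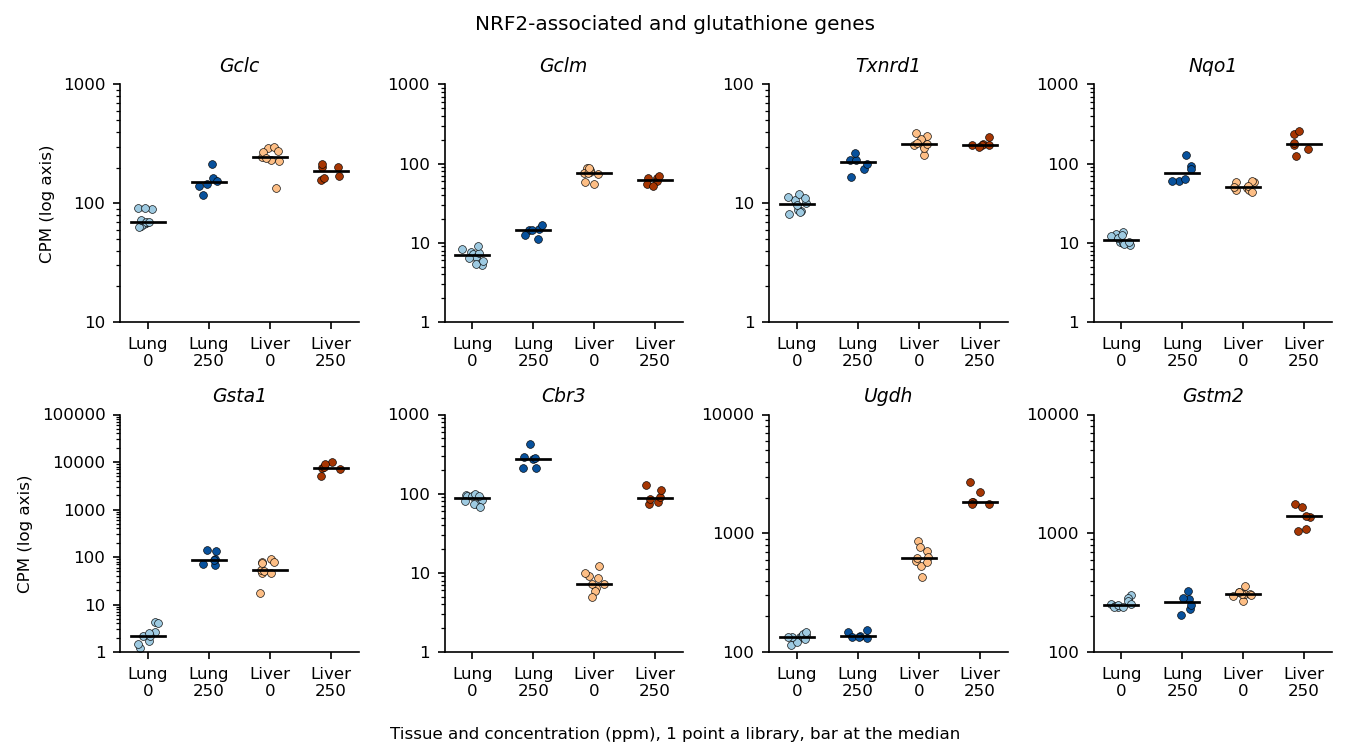
CPM on a log axis in lung and liver at 0 and 250 ppm for NRF2 list genes, 1 point per library with a bar at the group median. Gsta1 rises in both tissues, Ugdh separates in liver alone (medians 624 and 1829 CPM), and Gclm separates in lung alone (6.95 and 14.6 CPM).

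Enzymes of phase I metabolism and targets of the receptors CAR, PXR and AhR moved in no common direction. Of 34 probes on the CAR and PXR list, 6 were higher and 4 lower in lung relative to liver, shares near the 22.3% and 12.1% of all probes. In lung 5 rose and none fell, and in liver 10 rose and 15 fell, or 10 and 11 with separate scaling. Of all probes, 12.6% rose and 8.2% fell in lung, and 18.1% rose and 37.5% fell in liver. The single strongest gene was Ces1g, a carboxylesterase. It went from 0.49, 1.18 and 2.48 CPM to 9.93, 12.4 and 15.3 CPM in lung, with no overlap. In liver it was at 95.3, 150.4 and 170.2 CPM and then 109, 148 and 199 CPM, so that its difference of 3.35 ± 0.25 (adjusted p = 9.1e-17) came from the lung. Exposed lungs remained below every control liver.

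Cyp2b10, the classical CAR target, went the other way. In liver it rose from 50.2, 121 and 149 CPM to 231, 325 and 434 CPM, with no overlap. In lung it measured 419, 609 and 664 CPM in controls and 248, 435 and 474 CPM after exposure, and the change of -0.56 ± 0.23 did not pass (adjusted p = 0.072). The difference was -2.18 ± 0.32 (adjusted p = 2.1e-07). Abcb1a, a drug efflux pump, differed by -1.32 ± 0.19, again with a liver rise (1.07 ± 0.13) and no call in lung. On the AhR list of 9 probes, 3 were higher and 1 lower in lung relative to liver, against 22.3% and 12.1% of all probes. With separate scaling 2 were higher and 1 lower, against 12.1% and 15.8%. Cyp1a1, the classical AhR target, rose in liver from a median of 1.25 to 4.5 CPM. Its difference was -3.25 ± 0.51, with levels near the lower end of the measured range.

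Cyp2a5 rose by nearly the same amount in the tissues, 2.14 ± 0.32 in lung and 2.27 ± 0.33 in liver, and its difference of -0.13 ± 0.46 did not pass (adjusted p = 0.88). That standard error leaves room for a moderate difference. The related Cyp2a4 can share its reads. Cyp2f2, the P450 characteristic of club cells, measured 11658, 19046 and 23362 CPM in control lungs and 4189, 16991 and 25121 CPM after exposure. Its change passed in neither tissue (adjusted p = 0.16 in lung and 0.084 in liver). Cyp2e1, a P450 of small solvents, fell in liver from 41810, 58742 and 77912 CPM to 7868, 12046 and 13815 CPM. Its difference of 2.17 ± 0.68 (adjusted p = 0.0097) was lost in 5 alternatives: with DESeq2, without animal 507, with only the 0 and 250 ppm groups in the fit, with the libraries labelled as not used, and with Dbp as a covariate, where it was 0.38. In lung, 1 control library (373 CPM) and 1 exposed library (175 CPM) stood far above their groups' medians of 25.3 and 26.1 CPM, and those lungs also had the highest hepatocyte marker sums (506 and 287 CPM). The part of liver RNA in those libraries was not tested.

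Several genes that were low in control livers rose there by the largest amounts. Afp, the alpha-fetoprotein of fetal and regenerating liver, rose from 12, 21 and 30.5 CPM to 2509, 3941 and 6614 CPM in liver. In lung it rose from 4.09, 4.98 and 5.75 CPM to 10.1, 11.4 and 16.1 CPM. Neither tissue overlapped, and the difference of -6.37 ± 0.41 (adjusted p = 3.1e-19) was the largest among probes measured in both tissues. Mmp12, a macrophage elastase, rose in liver from 0.0819, 0.367 and 0.833 CPM to 1.89, 35.6 and 62.1 CPM, while lung stayed at medians of 6.98 and 6.82 CPM. A second Mmp12 probe gave -5.08 ± 0.61, beside -6.15 ± 0.69 for the first. S100a6, a calcium-binding protein, rose in liver from 6.71, 7.86 and 17.6 CPM to 43.9, 155 and 318 CPM. Its lung rise of 0.73 ± 0.25 was smaller, and the difference was -3.27 ± 0.39 (adjusted p = 9.1e-10). Phlda3, a p53 target that restrains AKT, gave -2.77 ± 0.25.

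Matrix genes rose in liver with little change in lung, and the exposed livers were divided. Of 28 probes on the extracellular matrix and remodelling list, 13 rose and 3 fell in liver, against 18.1% and 37.5% of all probes. With separate scaling 14 rose and 1 fell there. In lung 1 rose. The difference was lower in lung relative to liver for 10 and higher for 1, against 12.1% and 22.3% of all probes. Col1a1, a collagen I chain, rose in liver from 11.1, 19.9 and 44.2 CPM to 20.8, 84 and 243 CPM, which overlapped. Its difference was -1.92 ± 0.44 (adjusted p = 0.00042). The summed fibroblast markers of exposed livers were 525, 456 and 440 CPM in animals 503, 507 and 508, and 84.9, 104 and 156 CPM in animals 506R, 501 and 505, with controls between 102 and 155 CPM. Macrophage marker sums were likewise 1686 to 3051 CPM in the other 4 exposed livers and 869 and 850 CPM in 501 and 506R, with controls between 1037 and 4565 CPM. The count of matrix probes lower in lung relative to liver was 5 without animal 503, 15 without 506R and 19 without both 501 and 506R. The part of cell composition in this list was not tested.

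Among inflammatory genes no common direction was seen. Of 34 probes, 6 were higher and 5 lower in lung relative to liver (4 and 6 with separate scaling), shares near the 22.3% and 12.1% of all probes. The chemokines Ccl3 (-3.66 ± 0.62) and Ccl4 (-3.04 ± 0.53) rose in liver, where their control medians were 0.499 and 1.37 CPM. Interleukin-1 beta (Il1b) fell in liver from 5.78, 9.32 and 57.7 CPM to 2.55, 3.44 and 5.56 CPM, a difference of 1.74 ± 0.49 (adjusted p = 0.0034). Il6 rose in lung from 0.683, 2.02 and 3.14 CPM to 2.08, 6 and 26.4 CPM, which overlapped, and stayed under 1.2 CPM in every liver of the compared groups. The monocyte chemokine Ccl2 rose by 2.06 ± 0.36 in lung and 0.94 ± 0.38 in liver without a called difference (adjusted p = 0.098), although the difference passed without animal 503, 504 or 508 (smallest adjusted p = 0.031).

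Of the 10 largest positive differences among probes measured in both tissues, all but that of Ces1g came from genes that fell in liver. Egfr, the epidermal growth factor receptor, fell in liver from 354, 590.3 and 732 CPM to 56, 65.8 and 110.1 CPM and in lung from 25.7, 34.4 and 41 CPM to 17.7, 21.4 and 23.8 CPM. Both tissues separated completely, and the difference was 2.37 ± 0.24 (adjusted p = 4.8e-12; lung -0.69, liver -3.06). Socs2, a growth hormone target that dampens cytokine signals, fell in liver alone, by 2.57 ± 0.39, with a difference of 2.44 ± 0.50. Glul, the glutamine synthetase of hepatocytes next to the central vein, fell in liver from 982, 1042 and 1308 CPM to 82.8, 147 and 432 CPM. Its lung libraries overlapped, and the difference was 2.03 ± 0.28 (adjusted p = 4.7e-08). Ndrg1, a stress-responsive gene, differed by 2.22 ± 0.24 and the mitochondrial chaperone Clpx by 1.74 ± 0.24, both through liver falls. Slc1a2, a glutamate transporter that lung barely expresses, fell in liver from 31.5, 53.7 and 65.5 CPM to 0.381, 0.505 and 2.55 CPM.

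Lists of metabolism and protein folding differed from each other. Of 21 probes for targets of PPARA, the receptor that governs fatty acid oxidation, 14 fell in liver and 1 rose. In lung 2 rose and 1 fell. Of all probes, 37.5% fell and 18.1% rose in liver, and 12.6% rose and 8.2% fell in lung. The difference was higher in lung for 11 and lower for 1, against 22.3% and 12.1% of all probes, and 10 and 1 when each tissue was scaled on its own. Acaa1a, a peroxisomal thiolase, differed by 0.82 ± 0.14 where liver changed by -0.58 ± 0.10, and Hadha, of the mitochondrial trifunctional protein, by 0.55 ± 0.09. Cd36, the fatty acid transporter, was the exception, rising in liver by 1.37 ± 0.15 with a difference of -1.51 ± 0.21. Of 17 probes for the unfolded protein and integrated stress responses, 12 fell in liver, against 37.5% of all probes. With separate scaling 11 fell there, against 697 of all 2853 probes. The difference was higher in lung for 9 and lower for 1, against 22.3% and 12.1% of all probes. With separate scaling these counts were 6 and 1, against 12.1% and 15.8%. Herpud1, a component of the machinery that disposes of misfolded proteins, fell in liver from 1714, 2267 and 3295 CPM to 462, 731 and 832 CPM, a difference of 1.48 ± 0.17 (adjusted p = 2.6e-10). Of 15 cholesterol synthesis probes, 2 were higher and 4 lower (1 and 6 with separate scaling), and of 7 fatty acid synthesis probes 2 were higher and 2 lower (2 and 5). Of 18 mitochondrial respiration probes, 10 were higher in lung relative to liver under joint scaling and 4 under separate scaling. Beside these lists, 22.3% of all probes were higher and 12.1% lower under joint scaling. Under separate scaling the shares of all probes were 12.1% and 15.8%.

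Cd74 and H2-aa, of MHC class II antigen presentation, fell further in liver. Cd74, the invariant chain of MHC class II, fell from 856, 1249 and 3104 CPM to 114, 248 and 490.4 CPM in liver with no overlap. In lung it went from 4983, 6377 and 9840 CPM to 3863, 4653 and 4994 CPM, which overlapped slightly. The difference was 1.72 ± 0.29 (adjusted p = 2.8e-06), and H2-aa, an MHC class II chain, gave 1.65 ± 0.30. Mbl1, a mannose-binding lectin made by hepatocytes, differed by 1.65 ± 0.16 through a liver fall of 1.45 ± 0.12. Of 15 acute phase probes, 10 fell in liver, against 37.5% of all probes, and 5 were higher in lung relative to liver, against 22.3%. With separate scaling these counts were 9 and 3, and the latter was 2 without animal 506R. Saa1, serum amyloid A, fell in liver by 3.25 ± 0.61, with 1 control liver at 13873 CPM against a control median of 565 CPM, and its difference was lost without animal 506R.

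Opposite changes that held under both scalings were few. Adm, the vasodilator adrenomedullin, fell in lung from 34.3, 49.8 and 57.1 CPM to 12.4, 17 and 23.4 CPM with no overlap. In liver it rose from 5.98, 10.5 and 13.4 CPM to 5.27, 15.6 and 20.6 CPM, which overlapped, and the difference was -1.98 ± 0.30 (adjusted p = 3.6e-07; lung -1.46, liver 0.52). Vcam1, an adhesion molecule of blood vessels, fell in lung and rose in liver by each of its 2 probes, with differences of -1.26 ± 0.22 and -1.12 ± 0.24. Ces2e, another carboxylesterase, fell slightly in lung (-0.40 ± 0.11) and rose in liver (1.01 ± 0.11). Scp2, a sterol carrier, rose in lung by 0.41 ± 0.09 and fell in liver by 0.97 ± 0.09, with no overlap in either tissue. Ceacam1 and Ugt1a5 moved as Scp2 did, with differences of 1.10 ± 0.14 and 1.32 ± 0.27, and the Ugt1a genes share most of their exons. The Ugt1a5 call was lost with Dbp as a covariate. Abcb6, a porphyrin transporter, and Bhlhe40, a clock repressor, rose in lung, but their liver falls were not called with separate scaling.

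**Figure D4:**
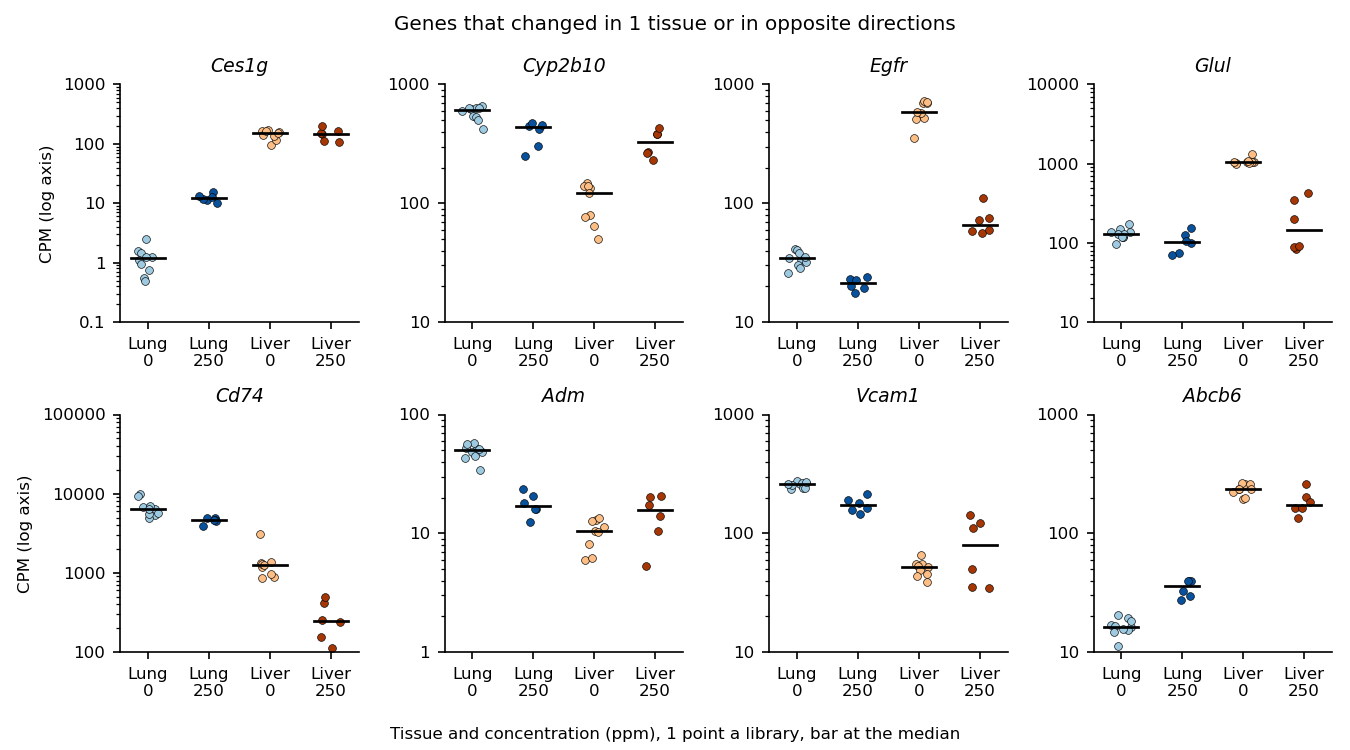
CPM on a log axis in lung and liver at 0 and 250 ppm for genes that changed in 1 tissue or in opposite directions, 1 point per library with a bar at the group median. Ces1g separates in lung alone and Cyp2b10 in liver alone, and Adm falls in lung (medians 49.8 and 17 CPM) while its liver groups overlap.

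Some changes passed in both tissues. All 6 red cell probes fell in both tissues, and the difference passed for none by edgeR under either scaling (unadjusted p under 0.05 for 1 of them). With animal as a block it passed for 4 of the 6, among them Hba-a1 (adjusted p = 0.0045) and Hbb-bs (adjusted p = 0.028), and DESeq2 called 1 Hba-a1 probe (adjusted p = 0.044). Their summed level fell from between 149692 and 372117 CPM to between 8196 and 157370 CPM in lung, and from between 9494 and 34637 CPM to between 358 and 5437 CPM in liver. The summed red cell level was lowest in animal 501 in both tissues, and its part in the other changes was not tested. Of 17 heat shock probes, 11 fell in liver and 6 in lung, against 37.5% and 8.2% of all probes, and 2 differed, against 34.4%. With separate scaling 9 fell in liver and 6 in lung, and 1 differed. Hsph1, a chaperone, fell by 0.83 ± 0.18 in lung and 1.31 ± 0.19 in liver by 1 of its 3 probes, and the difference of that probe passed with animal as a block alone (adjusted p = 0.043). Vegfa, the endothelial growth factor, fell in both tissues by each of its 2 probes, by 0.57 ± 0.10 and 0.81 ± 0.09 in lung and by 0.65 ± 0.10 and 0.54 ± 0.09 in liver, and the difference of the second probe, not called in the joint fit, passed with separate scaling (adjusted p = 0.004), with DESeq2 and without animal 506R. Endothelial markers fell for 8 of 9 probes in liver (6 with separate scaling), against 37.5% of all probes. In lung 2 fell, against 8.2% of all probes. The difference was higher in lung for 4 with joint scaling, against 22.3% of all probes. With separate scaling it was higher for 1, against 12.1%.

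At lower concentrations the tissues differed at fewer probes. In the 100 ppm groups the difference passed for 127 probes (4.45%). This count was 26 (0.911%) in the 30 ppm groups and 19 (0.666%) in the 10 ppm groups. At 1 ppm, with 4 lungs and 2 livers, edgeR called none, although 162 had an unadjusted p under 0.05 and DESeq2 called 5. All concentrations share the same control libraries. Of those from the 100 ppm groups, 63 were higher (2.21%) and 64 lower (2.24%) in lung relative to liver, or 38 and 80 with separate scaling.

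Ces1g differed at each concentration from 10 ppm upward, by 1.62 ± 0.27, 1.81 ± 0.26, 2.37 ± 0.26 and 3.35 ± 0.25 at 10, 30, 100 and 250 ppm. Its lung medians were 1.18, 1.85, 4.23, 6.52, 7.98 and 12.4 CPM from 0 to 250 ppm, a step up at every concentration. Gsta1 gave its largest difference at 100 ppm, at -3.52 ± 0.39 (adjusted p = 6.8e-10), when liver had reached 1353, 2628 and 2824 CPM and lung 6.47, 8.63 and 10.3 CPM. Nqo1 differed in favour of lung at 30 ppm (0.92 ± 0.22) and at 100 ppm (0.94 ± 0.22), close to its 1.00 ± 0.20 at 250 ppm. Cdc20 was lower in lung relative to liver at 100 ppm (-2.59 ± 0.51), and at 30 ppm its difference did not pass. Afp was still at 12.7, 44.8 and 52.2 CPM in livers at 100 ppm.

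The genes that led at 10 and 30 ppm were others. Cdkn1a, the cell cycle inhibitor p21, differed by 3.21 ± 0.46 at 10 ppm and 2.72 ± 0.43 at 30 ppm, and its difference of -0.77 ± 0.36 at 250 ppm did not pass with joint scaling (adjusted p = 0.09) and did with separate scaling (adjusted p = 0.041) or with animal as a block (adjusted p = 0.015), with DESeq2 and without animal 501. In liver its medians were 45.5, 52.3, 1.64, 2.7, 15.6 and 40.8 CPM in order of concentration from 0 to 250 ppm. Tk1, thymidine kinase, moved the other way, by -2.02 ± 0.43 and -2.04 ± 0.41 at 10 and 30 ppm. Arsa, a lysosomal sulfatase, also differed at both. The clock output gene Dbp moved across these same groups. Its medians were 48.3, 34.3, 278, 300.2, 199 and 193 CPM in lung and 44.9, 45.6, 535, 498, 246 and 91.2 CPM in liver from 0 to 250 ppm. With Dbp as a covariate in each tissue 3, 2 and 57 probes passed in the 10, 30 and 100 ppm groups. At 250 ppm 671 passed, against 982 without it. Time of collection and concentration cannot be told apart here, since no collection time is given in the sources used here.

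**Figure D5:**
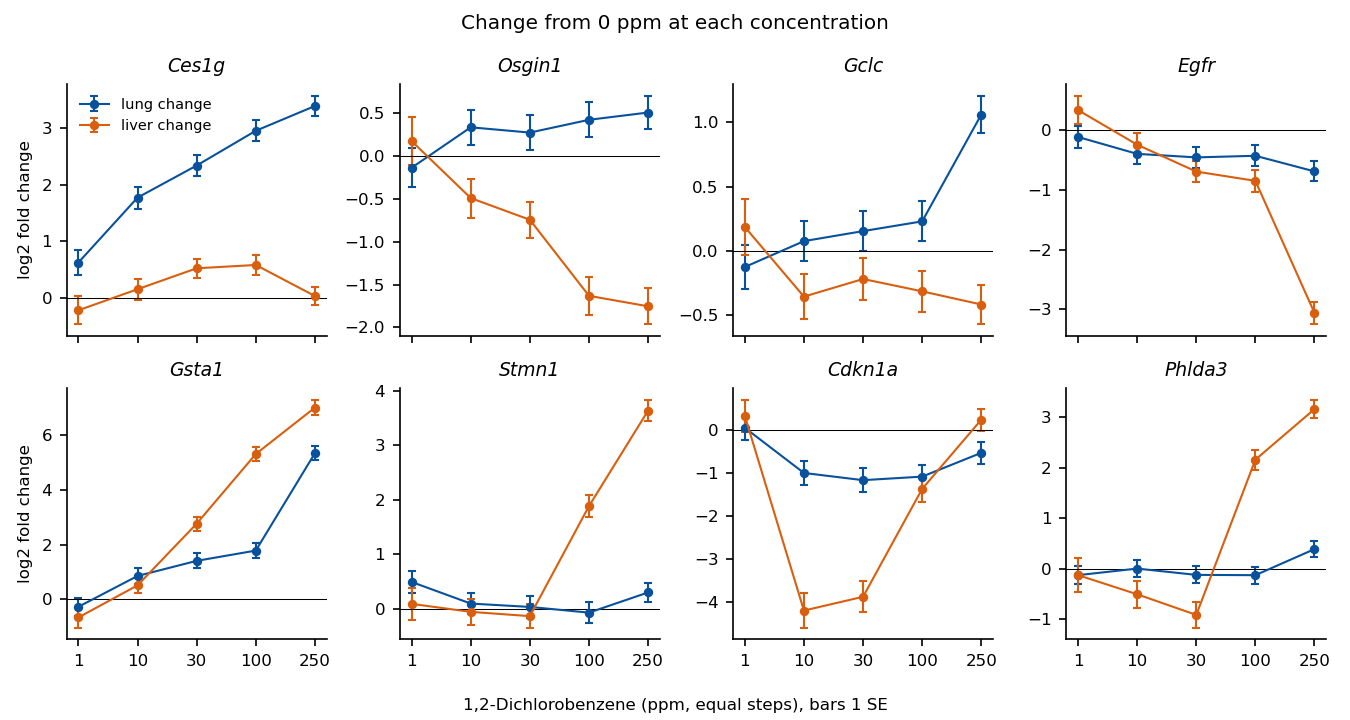
Change from 0 ppm (log2, vertical axis) at 1, 10, 30, 100 and 250 ppm (equal steps) in lung and liver for 8 genes, with bars of 1 standard error and lines joining the points. The Ces1g change climbs in lung to 3.38 and ends near 0 in liver, Gsta1 climbs earlier in liver than in lung, and Cdkn1a dips in liver at 10 and 30 ppm.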

How the data were processed

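Probe read counts were used as the authors deposited them. Per the submitters' processing notes, Bowtie 1.3.1 was among the tools. The genome build and probe manifest are not given in the sources used here. The counts carry an attenuation adjustment: 59 probes held only whole multiples of a factor between 2 and 21. The table's other 286 columns, of other tissues and treatments, were not used. Each library is a separate animal and tissue, and the labels name no molecular identifiers, so precision rests on the number of animals.

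The main model was edgeR 4.0.16 (R 4.3.3) on 66 libraries in 12 groups, with TMM over both tissues together, a filter on low counts, a quasi-likelihood test and Benjamini-Hochberg adjustment over 2853 probes. The scripts were tested on simulated data. Alternatives included scaling within each tissue, DESeq2 1.42.0, no filter, Dbp as a covariate and each animal left out.

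Lung and liver of 1 animal share its number, which pairs them. Their deviations from the group means had a median correlation of 0.127 over 29 pairs, against -0.0247 over 150 pairs of other animals. Among 174 pairs of libraries within a group none was identical.

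Members and gene lists were chosen with earlier results of these data known. Named genes were the 15 largest differences each way among probes measured in both tissues, the 10 largest opposite changes, the 5 largest rises in lung alone, up to 6 members of each list, up to 5 probes each way measured in 1 tissue and up to 5 each way at lower concentrations. Other list members given as examples were chosen after their values were seen.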

Additional observations from a re-analysis of the deposited data

Results flagged for a closer look

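The lung and liver changes differed by test for 982 probes at 250 ppm, 127 at 100 ppm, 26 at 30 ppm and 19 at 10 ppm. Of 17 opposite changes that held under both scalings, those among the 10 largest are listed here. They were Adm (-1.98), Ces2e (-1.41), Vcam1 (-1.26 and -1.12), Scp2 (1.38), Ugt1a5 (1.32) and Ceacam1 (1.10).

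A single library lay far from its group in 24 of 188 groups tested. The nominal rate of the rule, about 1 in 20, holds for independent, normally distributed values. These CPM were not log-transformed and many of the quantities are related, so the count cannot be read against that rate. In control livers, animal 4 was highest for Cd74 (3104 CPM), Col1a1 (44.2 CPM) and the macrophage (4565 CPM) and neutrophil (434 CPM) marker sums, and lowest for Gclc (135 CPM). The lung of the same animal was highest for Mmp12 (17.5 CPM) and the neutrophil sum (4881 CPM). Control animal 5 had the highest liver Cdc20 (25.9 CPM) and Top2a (16.7 CPM), animal 7 the highest liver S100a6 (17.6 CPM) and animal 8 the highest liver Glul (1308 CPM). The control lung of animal 9 was highest for Ccnb2 (9.90 CPM), Cyp2e1 (373 CPM) and the hepatocyte (506 CPM) and fibroblast (989.7 CPM) sums, and that of animal 2 for the macrophage sum (43254 CPM).

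Among exposed livers, animal 501 was highest for Txnrd1 (35.9 CPM) and Cyp1a1 (13.9 CPM) and animal 503 for Egfr (110.05 CPM). Among exposed lungs, animal 508 was highest for Cbr3 (430.0 CPM) and Cyp2a5 (1331 CPM), animal 506R for Bhlhe40 (588 CPM) and animal 507 for Cyp2e1 (175 CPM) and the hepatocyte sum (287 CPM).

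For Gsta1, the 250 ppm libraries that the labels set aside lay above the controls. The lung of animal 505, with 0.535 M counts, was set aside for a total alignment rate under 40%. It gave 6.50 CPM of Gsta1, above the highest control at 4.32 CPM and below the used exposed lungs. The liver of animal 504, with 0.132 M counts, gave 1605 CPM, against at most 89.2 CPM in controls and at least 5053 CPM in the used exposed livers. For Cdc20 the same libraries gave 10.4 CPM in lung, where the highest control was 19.5 CPM, and 0 CPM in liver, where the lowest used exposed library was 85.8 CPM, so neither showed its rise.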

How the results depend on the processing

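No called difference of a named gene changed sign under the alternatives run; differences that were not called did, such as Cyp2a5 (-0.72 to 0.18) and Cyp2f2 (-0.27 to 0.19). Of 155 named probes, 117 were called, 87 of these in every alternative, and 30 were lost in at least 1. With the libraries labelled as not used added, 635 probes differed at 250 ppm, 33 at 100 ppm, 9 at 30 ppm, 2 at 10 ppm and 491 at 1 ppm. In lung 266 changed at 250 ppm, and Gsta1, Gm3776, Srxn1, Arsa and Cyp2e1 were among the genes that lost their calls. With Dbp as a covariate 671 probes differed at 250 ppm (436 higher, 235 lower), against 982 in the main fit. In lung 439 probes changed, against 594, and in liver 1541, against 1586. At 100, 30 and 10 ppm 57, 2 and 3 probes differed, and Pcna, Ugt1a5 and Cyp2e1 were among the genes that lost their calls. DESeq2 called 61 at 30 ppm and 5 at 1 ppm. Without animals 501 and 506R together, a choice made after seeing the data, 316 probes changed in lung. Leaving out 1 animal at a time gave 860 to 1004 differences at 250 ppm, 442 (without 506R) to 611 lung changes and 1486 to 1589 liver changes. At lower concentrations, where only exposed animals were left out, it gave 65 (without 401; 79 without 405) to 107 at 100 ppm, 14 (without 305) to 26 at 30 ppm, 12 (without 201 or 204) to 19 at 10 ppm and 0 to 1 (without 103) at 1 ppm. With animal as a block, the paired analysis gave 938 differences at 250 ppm (621 higher, 317 lower), 145 at 100 ppm, 31 at 30 ppm, 20 at 10 ppm and 0 at 1 ppm, and among the genes described above it added calls for Cdkn1a (adjusted p = 0.015) 1 Hsph1 probe (adjusted p = 0.043) and 4 red cell probes, and it ended those of Gsta3 and G6pdx. The cause of these shifts was not tested. The groups at 1 ppm held the fewest libraries.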
